A study of Mus musculus with 6 samples.

Results

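Macrophages of pancreatic tumors were compared between mice given mono-IL10, a monomeric form of the cytokine IL-10, and mice given PBS. A barcode was taken as a macrophage when it had at least 1000 detected genes, at most 10% mitochondrial UMIs (unique molecular identifiers, each standing for 1 captured RNA molecule), a UMI of at least 3 of the 4 genes Csf1r, C1qa, C1qb and Adgre1, no more than 3 UMIs of the keratins Krt8 and Krt18 together, and none of Cd3e, Ncr1 or Klrb1c. It was given to a mouse when 1 hashtag antibody held at least 2/3 of its antibody UMIs. These rules left 15217 macrophages of 74940 barcodes in the PBS and mono-IL10 libraries, 8606 from 5 PBS mice and 6611 from 5 mono-IL10 mice. The counts of each mouse were summed. The whole series, which has another group, holds 130444 barcodes.

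The mice, C57BL/6 in the methods of the study, carried subcutaneous tumors grown from 250000 6694c2vTRP1 cells, a pancreatic ductal adenocarcinoma line that expresses TRP1. PBS or mono-IL10 at 26 μg per mouse was injected into the peritoneum in 2 doses from day 8, and CD45+ cells were isolated with beads on day 14 for 5' single-cell RNA sequencing. Another group, IL10/2-Trikine at 30.6 μg per mouse on the same schedule, is used here only for values set side by side. The methods give an age for mice that carried the line without TRP1 and were treated on another schedule, and none that is tied to these mice. Group sizes are given as 5 mice in the labels of both cytokine groups, and that of PBS follows from its 5 hashtags.

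IL-10 binds a receptor of 2 chains, IL-10RA and IL-10RB, and signals mainly through JAK1, TYK2 and the transcription factor STAT3. In macrophages it is known as an inhibitory cytokine that induces the signaling inhibitor SOCS3 and limits the output of TNF, IL-6 and IL-12, and it is also known to raise scavenger and Fc receptors. Macrophages are abundant in many pancreatic tumors, where they take up debris, remodel matrix and present antigen.

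All cells of a treatment were sequenced in 1 library, so the treatment and the library cannot be told apart in any comparison below. The macrophages of a mouse numbered 907 to 2635 in PBS and 1085 to 1888 in mono-IL10, with 6595962 to 20286441 summed UMIs per mouse over the genes tested. Median UMIs per macrophage were 5959 in PBS and 6861 in mono-IL10, no mouse could be assigned to 19.4% and 7.94% of macrophages, and 17 macrophage barcodes occurred in both libraries. The gate's own markers, present by its rule, had Csf1r at 509 to 655 CPM (counts per 1e6 UMIs, scaled by TMM factors), C1qa at 1776 to 2939 CPM and Adgre1 at 194 to 259 CPM. Xist was detected at 596 to 856 CPM in all 10 mice and the highest of 4 Y-linked genes in any mouse stood at 0.173 CPM.

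RNA of other cells was present in the summed counts. Of the neutrophil markers tested, 4 of 6 were called lower with mono-IL10 and none higher, beside 5.8% lower and 2.67% higher among all genes tested. Their summed level was 1052 to 1332 CPM in PBS mice and 443 to 844 CPM in mono-IL10 mice. S100a8, a calcium-binding protein abundant in neutrophils, stood at 459 to 560 CPM in PBS and 184 to 373 CPM in mono-IL10. In the dendritic cell list only Clec9a was called, lower, among 9 markers tested, and summed levels were 80.2 to 125 CPM and 62.4 to 109 CPM. No T cell, NK cell, B cell, mast cell or endothelial marker was called, while 1 of 9 tumor epithelial markers, Sprr1a, was called higher and 1 of 8 fibroblast markers, Pdgfrb, lower. Summed fibroblast markers ranged from 68.8 to 888 CPM in PBS mice and from 357 to 783 CPM in mono-IL10 mice, mast cell markers reached 40.9 CPM in PBS and 172 CPM in mono-IL10 (median log2 2.07) and B cell markers ranged from 28.9 to 54.7 CPM and from 24.5 to 248 CPM. Levels of Cd3e, Ncr1 and Klrb1c were 0 because the gate required it. Whether this RNA enters the differences below was not tested for each gene. With every barcode that held a neutrophil or dendritic marker UMI left out, an alternative added after the data were seen, 358 genes were called higher and 698 lower.

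Of 13016 genes tested, 347 rose and 755 fell with mono-IL10 at a Benjamini-Hochberg adjusted p under 0.05 and a fold of at least 1.5, which is 2.67% and 5.8% of all genes tested. "Called", "rose" and "fell" are used below for genes past both limits. At the adjusted p alone, 1631 genes were higher (12.5%) and 1614 lower (12.4%), and the median log2 difference over all genes was -0.01. Scaling by library totals alone, without TMM, shifted the median gene by -0.10 on the log2 scale and gave 230 genes higher and 1010 lower. Mice of the 2 groups did not overlap for 279 of the genes called higher and 494 of those called lower, beside 17.5% of all genes tested. Of the genes called lower, 472 had a mean under 10 CPM in PBS.

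The 12 largest increases under the rule for named genes were led by Gja1, Cd163, Ifitm1 and Pgap6. That rule admits only genes whose mice do not overlap between groups. Gja1, which encodes connexin 43, was at 16.6, 17.4, 29.5, 11.4 and 17.9 CPM in the PBS mice and at 127, 139, 96.8, 115 and 141 CPM in the mono-IL10 mice. The groups were far apart, with a 6.83-fold difference (log2 2.77 ± 0.21, SE, adjusted p = 2.21e-05). Cd163, the receptor for haptoglobin bound to hemoglobin, was at 21.1, 11.7, 16.7, 4.68 and 26.2 CPM in PBS and 123, 136, 64.2, 37.9 and 168 CPM in mono-IL10. Its standard error was the largest of the 12 genes, but the lowest mono-IL10 mouse lay above the highest PBS mouse, and the difference was 6.68-fold (log2 2.74 ± 0.53, adjusted p = 0.00627). At a hashtag purity of 0.9 it stood at log2 2.02 and did not pass (adjusted p = 0.124). Among macrophage barcodes with no Cd163 UMI, taken as an added alternative, 348 genes were still called higher and 744 lower, of which 307 and 663 were calls of all macrophages.

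Ecm1, a secreted matrix protein, gave the smallest adjusted p of all the genes named here. Its level was 120, 123, 111, 108 and 117 CPM in PBS mice and 403, 412, 449, 390 and 433 CPM in mono-IL10 mice, 3.6-fold higher (log2 1.85 ± 0.06, adjusted p = 2.48e-10). Ifitm1, an interferon-induced transmembrane protein, rose 5.59-fold from 168 ± 60.5 (SD, n = 5) to 943 ± 145 CPM. Within PBS it stood at 276 CPM in mouse 2 and at 136 to 148 CPM in the other 4. Pgf, placental growth factor of the VEGF family, was at 36.7, 81.4, 59.4, 42.2 and 54.8 CPM in PBS and 263, 298, 270, 225 and 200 CPM in mono-IL10, a 4.56-fold rise (log2 2.19 ± 0.22, adjusted p = 0.000121).

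The other genes among the 12 with the largest increases rose 2.81 to 5.39-fold, without overlap of mice as the rule required. They were Pgap6, which acts on GPI-anchored proteins (5.39-fold), Ddit4, an inhibitor of mTORC1 (3.49-fold), the metallothionein Mt2 (3.35-fold), Nxpe5 (3.11-fold), the chemokine Ccl8 (2.95-fold), Npl, an enzyme of sialic acid breakdown (2.82-fold), and Fabp5, a fatty acid binding protein (2.81-fold). Ccl8 reached 1084, 839, 780, 769 and 1459 CPM in PBS and 3983, 3119, 2002, 2848 and 2569 CPM in mono-IL10. Fabp5 was at 971, 1378, 1313, 1111 and 1210 CPM in PBS and 3762, 3256, 3515, 3357 and 2940 CPM in mono-IL10.

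**Figure D1:**
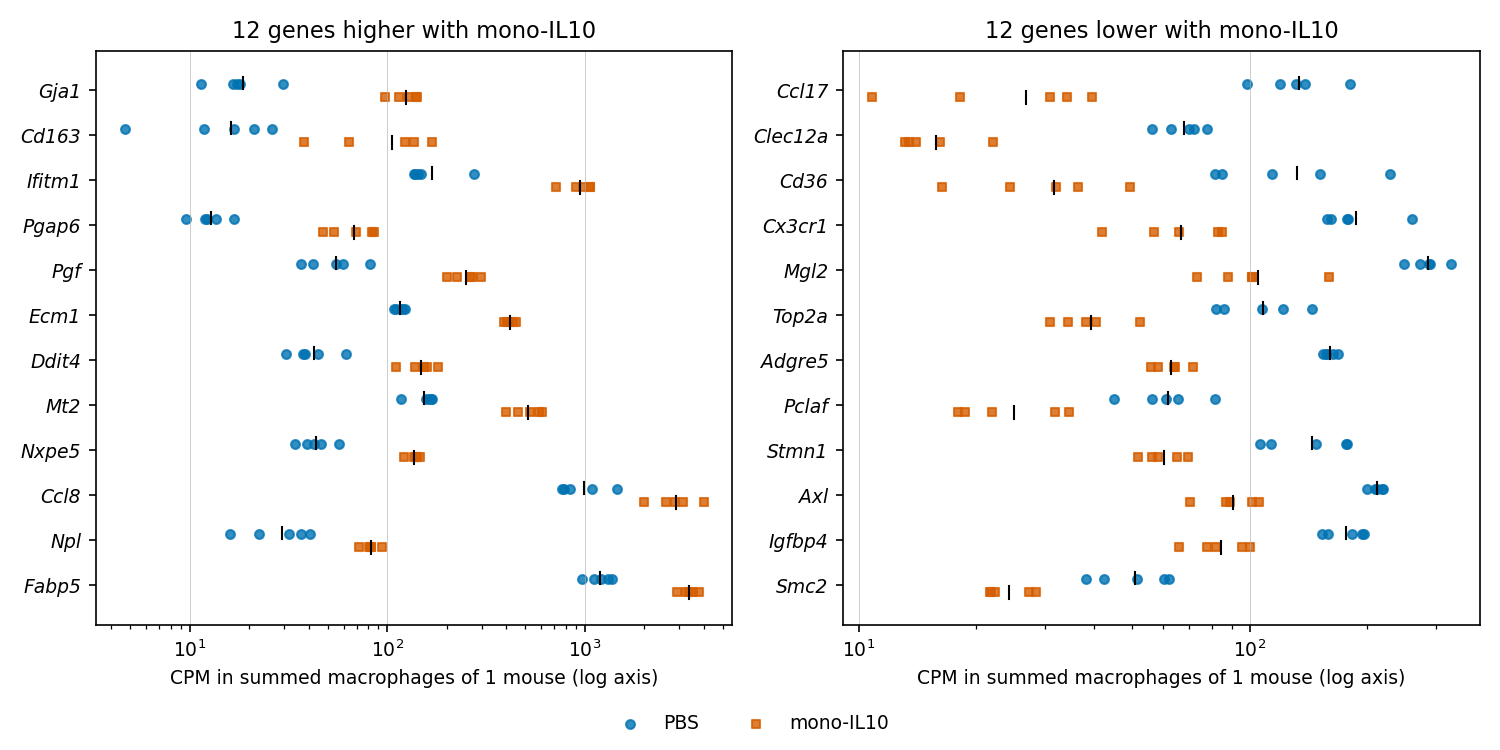
Level of the 12 genes with the largest increase (left) and decrease (right) under the rule for named genes, in CPM on a log axis, with 1 circle per PBS mouse, 1 square per mono-IL10 mouse and a black tick at each group mean. The groups do not overlap for any of the 24 genes, which the rule required, and Cd163 ranges from 37.9 to 168 CPM among mono-IL10 mice while Ecm1 ranges from 390 to 449 CPM.

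The 12 largest decreases were led by Ccl17, Clec12a, Cd36 and Cx3cr1. Ccl17, a T cell attracting chemokine and ligand of CCR4, was at 138, 131, 180, 120 and 98.2 CPM in PBS mice and 39.5, 34.2, 18.2, 10.8 and 30.9 CPM in mono-IL10 mice, 4.9-fold lower (log2 -2.29 ± 0.32, adjusted p = 0.00104). Clec12a, an inhibitory lectin receptor, was at 69.9, 63, 72, 78 and 56.3 CPM and at 22.1, 14, 13.1, 13.4 and 16.2 CPM, 4.22-fold lower (log2 -2.08 ± 0.14, adjusted p = 3.15e-06). Without barcodes holding a neutrophil or dendritic marker UMI the Ccl17 difference was larger (log2 -4.37, adjusted p = 0.000588). Both genes were lower in all 5 mono-IL10 mice than in any PBS mouse, which the rule required.

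Cx3cr1, the fractalkine receptor, was at 260, 178, 158, 161 and 178 CPM in PBS and 57.1, 65.9, 83.1, 84.9 and 41.8 CPM in mono-IL10 (2.82-fold lower, log2 -1.49 ± 0.21, adjusted p = 0.000964). Cd36, a scavenger receptor for oxidized lipid and fatty acids, fell 4.17-fold and had the largest standard error of the 12 genes, with mice from 81.3 to 229 CPM in PBS and from 16.3 to 49.4 CPM in mono-IL10. Axl, a receptor tyrosine kinase that recognizes apoptotic cells through Gas6, fell from 217, 209, 199, 219 and 212 CPM to 89.1, 87.1, 101, 106 and 70.5 CPM (2.33-fold, log2 -1.22 ± 0.09, adjusted p = 1.31e-06). Adgre5, the adhesion receptor CD97, fell 2.55-fold from 160 ± 5.60 to 62.9 ± 6.01 CPM, and the lectin Mgl2 fell 2.72-fold. The remaining genes of the 12 were Igfbp4, which binds insulin-like growth factors (2.09-fold lower), and 4 genes of dividing cells, Top2a, Pclaf, Stmn1 and Smc2 (2.07 to 2.72-fold lower).

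Functional lists were read against these background shares. They hold 36 groups of genes, share some members with each other, and were chosen with earlier results of these data known, so their counts describe the response and carry no test of their own. Members named beyond the 3 with the smallest p in a list were picked after their values were seen. Fc receptors held the largest share of called genes in the higher direction and the G2 and M phase list the largest in the lower direction, whereas edgeR and DESeq2 each called 0 members of the MHC class I, inflammasome and oxidative phosphorylation lists. At an unadjusted p under 0.05 in edgeR's test, 2 MHC class I, 5 inflammasome and 24 oxidative phosphorylation genes were higher and 1, 5 and 2 lower.

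**Figure D2:**
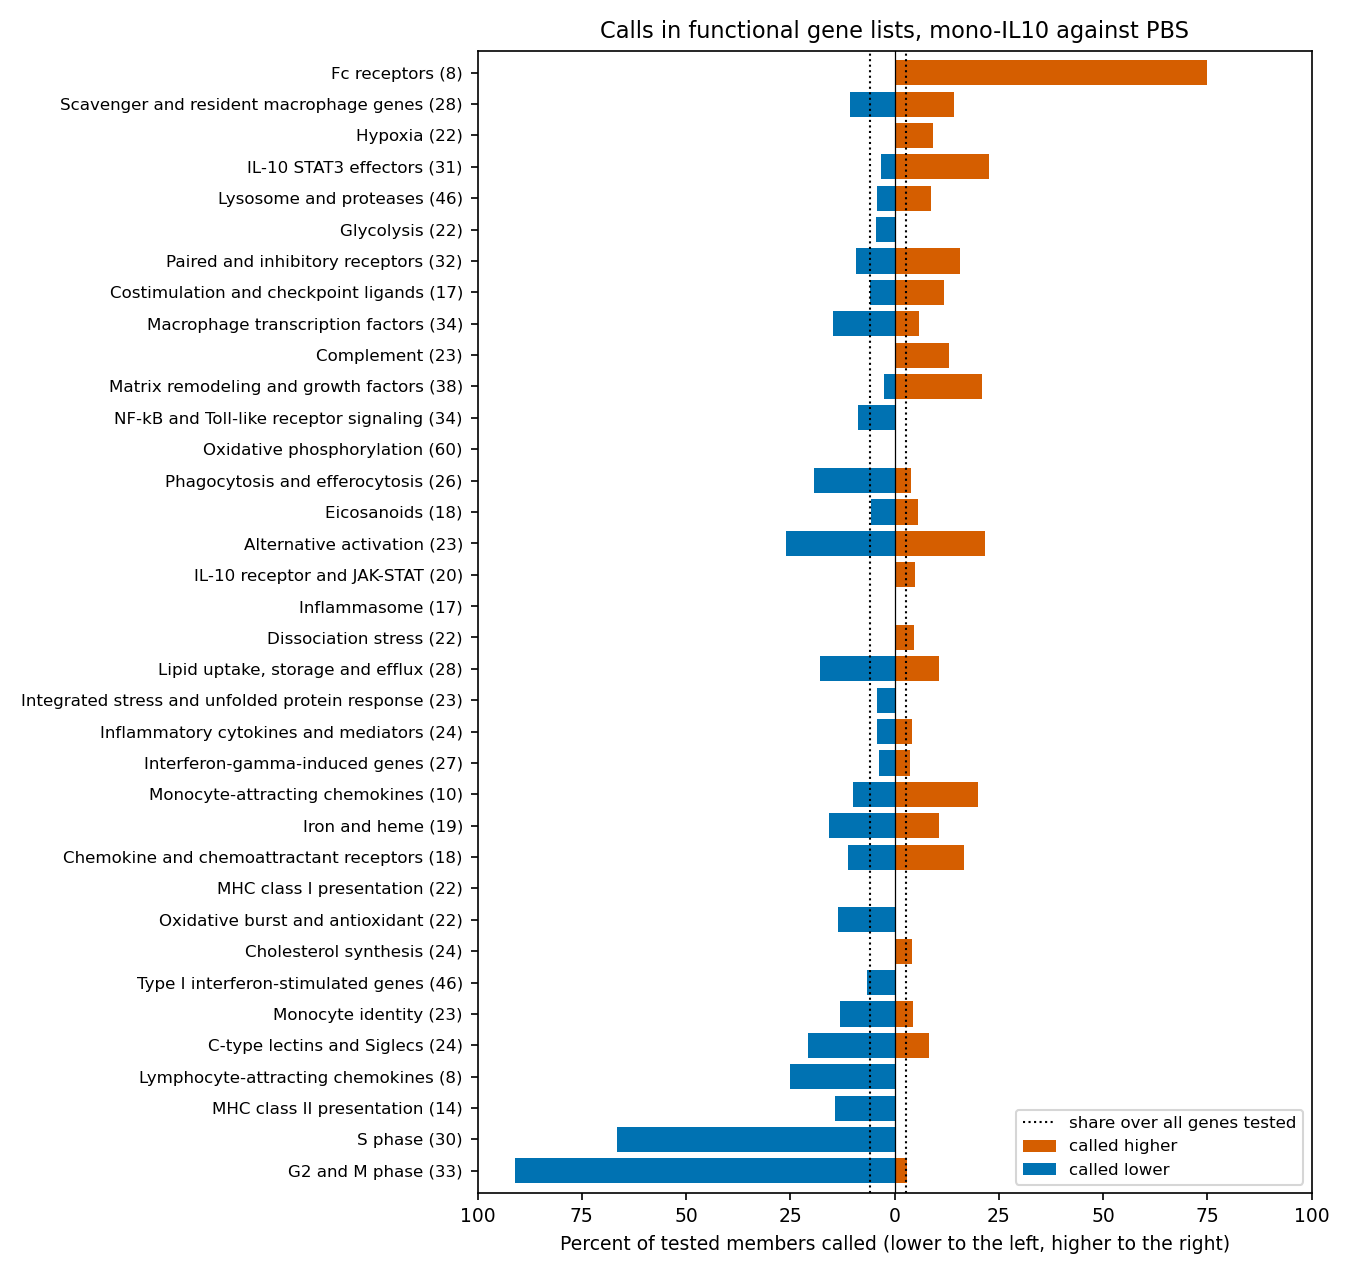
Percent of the tested members of each functional list that were called higher (orange, to the right) or lower (blue, to the left), ordered by the median log2 difference of the list, with the number tested in parentheses. Dotted lines mark the shares over all genes tested, 2.67% higher and 5.8% lower, and the Fc receptor bar (6 of 8) and the G2 and M phase bar (30 of 33) stand farthest from them.

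The receptor itself moved little. Il10ra, the ligand-binding chain, stood at 128, 121, 116, 126 and 127 CPM in PBS and at 131, 147, 131, 137 and 134 CPM in mono-IL10 (log2 0.14 ± 0.05, adjusted p = 0.0616, with 5 alternatives past 0.05). Il10rb differed by 1.14-fold (adjusted p = 0.0462) and lost that p in 16 of the 25 alternatives tried. Stat3 was 1.31-fold higher, at 280 ± 23.3 against 367 ± 34 CPM (adjusted p = 0.00189), under the 1.5-fold limit. Of 20 receptor and JAK-STAT genes tested, 1 was called (5%, beside 8.47% of all genes tested), Socs3, the feedback inhibitor of the pathway. Socs3 was at 265, 355, 280, 279 and 295 CPM in PBS and 442, 460, 464, 491 and 399 CPM in mono-IL10, 1.53-fold higher (log2 0.61 ± 0.08, adjusted p = 0.000123), and each mono-IL10 mouse lay above every PBS mouse. With library totals alone it stood at log2 0.51, under the fold limit, and none of the 20 genes was called. Il10 itself was not called, with 54.3 ± 11.1 CPM in PBS and 47.9 ± 9.59 CPM in mono-IL10 (adjusted p = 0.447).

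Of 31 genes listed as IL-10 and STAT3 effectors, 7 rose and 1 fell, beside 2.67% and 5.8% of all genes tested. Their median log2 difference was 0.24. With library totals alone 3 were called higher and 3 lower (median 0.14), and without cell cycle barcodes 5 higher and 3 lower (median 0.19). Cd163, Ddit4, Socs3, Il4ra, Nfil3 and Fcgr1 were among those that rose. Il4ra, the shared receptor chain for IL-4 and IL-13, had 159, 136, 152, 159 and 156 CPM in PBS and 370, 367, 316, 333 and 384 CPM in mono-IL10 (2.33-fold, log2 1.22 ± 0.07, adjusted p = 5.4e-08). Nfil3, a repressor induced by IL-10 that acts on Il12b, rose 1.56-fold (adjusted p = 0.00041). Il1rn, the antagonist of the IL-1 receptor, was 1.49-fold higher without overlap (885 ± 73.9 against 1316 ± 141 CPM, adjusted p = 0.000247), and the corepressor Sbno2 was 1.37-fold higher (adjusted p = 0.000225). Zfp36, which destabilizes cytokine mRNAs, was 1.2-fold higher (adjusted p = 0.00949). Bcl3, a nuclear IκB protein, did not pass, at 32.8 ± 3.09 against 33.6 ± 3.96 CPM (log2 0.03 ± 0.09, adjusted p = 0.831). The member called lower was Tnip3, an NF-kB inhibitor (1.88-fold).

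Promoters of 4 of these genes are shown because STAT proteins bind paired TTC and GAA letters. The motif searched was TTCNNNGAA, which reads the same on both strands, in windows of 300 bases from 250 before to 50 after a RefSeq start on GRCm38.p6 (the count files are on GRCm39). It was present in 10.8% of 250 promoters of genes called higher, in 7.45% of 550 of genes called lower and in 8.22% of 9948 of all genes tested that had an entry. Socs3 and Bcl3 were always to be shown, and Ctsc and Bcl6 were the 2 named genes with the smallest p in the higher direction that held the motif. Capitals mark the motif. It begins 154 bases before the Socs3 start (chr11:117969317-117969616, minus strand), 236 bases before the Ctsc start (chr7:88277835-88278134, plus strand) and 118 bases before 1 Bcl6 start (chr16:23988803-23989102, minus strand). The other Bcl6 window (chr16:23981234-23981533, minus strand) holds 3 copies, and the Bcl3 window (chr7:19822706-19823005, minus strand) holds none. A match is a run of letters and not a site shown to bind.
Socs3: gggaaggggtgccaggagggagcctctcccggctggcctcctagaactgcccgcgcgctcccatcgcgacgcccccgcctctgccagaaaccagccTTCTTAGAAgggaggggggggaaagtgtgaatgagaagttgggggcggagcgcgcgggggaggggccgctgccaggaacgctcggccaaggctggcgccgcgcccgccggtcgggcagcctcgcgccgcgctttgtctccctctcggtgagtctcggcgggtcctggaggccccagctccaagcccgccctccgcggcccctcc
Bcl3: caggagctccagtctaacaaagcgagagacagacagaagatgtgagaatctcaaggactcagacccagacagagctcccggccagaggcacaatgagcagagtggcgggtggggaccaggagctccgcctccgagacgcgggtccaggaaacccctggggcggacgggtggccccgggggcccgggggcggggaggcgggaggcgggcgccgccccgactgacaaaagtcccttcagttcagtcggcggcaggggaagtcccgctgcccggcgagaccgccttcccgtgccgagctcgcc
Ctsc: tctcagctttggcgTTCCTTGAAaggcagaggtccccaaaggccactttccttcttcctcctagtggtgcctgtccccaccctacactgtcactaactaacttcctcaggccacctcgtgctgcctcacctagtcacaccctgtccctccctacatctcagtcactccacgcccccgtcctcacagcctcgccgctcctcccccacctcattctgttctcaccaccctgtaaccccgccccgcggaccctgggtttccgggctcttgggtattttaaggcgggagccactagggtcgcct
Bcl6, first window: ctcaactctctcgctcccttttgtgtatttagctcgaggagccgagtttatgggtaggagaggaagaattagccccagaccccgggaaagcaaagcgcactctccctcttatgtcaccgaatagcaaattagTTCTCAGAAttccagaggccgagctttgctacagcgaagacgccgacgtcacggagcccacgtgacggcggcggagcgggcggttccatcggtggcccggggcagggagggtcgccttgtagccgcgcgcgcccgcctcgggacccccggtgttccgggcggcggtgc
Bcl6, second window: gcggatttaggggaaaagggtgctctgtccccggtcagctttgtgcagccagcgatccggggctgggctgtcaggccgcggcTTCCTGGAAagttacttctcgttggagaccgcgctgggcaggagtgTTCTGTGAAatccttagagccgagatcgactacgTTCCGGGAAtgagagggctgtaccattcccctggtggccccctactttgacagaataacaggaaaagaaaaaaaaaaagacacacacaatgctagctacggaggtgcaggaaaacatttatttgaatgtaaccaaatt

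Inflammatory genes were called at about the share of all genes tested (8.33% beside 8.47%). Of 24 cytokines and mediators tested, 1 rose, Tnfsf9 (4-1BB ligand, 1.78-fold), and 1 fell, Csf2 (GM-CSF). At a hashtag purity of 0.9, 0 of 19 were called. Csf2 overlapped between groups and was at most 6.55 CPM in any mouse. In tumor epithelial barcodes, described below, Csf2 stood at 82.2 CPM in PBS and 112 CPM in mono-IL10, and the part of tumor RNA was not tested. Tnf stood at 197, 247, 146, 185 and 179 CPM in PBS and 210, 244, 271, 211 and 208 CPM in mono-IL10, with overlapping mice (log2 0.26 ± 0.13, adjusted p = 0.164), and passed without PBS mouse 2 (log2 0.37, adjusted p = 0.0199). Il6 was at 17.7 ± 4.04 and 17.7 ± 4.97 CPM (adjusted p = 0.983). Il1b, the precursor of IL-1 beta, was 1.26-fold higher at the adjusted p of 0.0456, and that p was not held in 14 of 25 alternatives. Il12b, which encodes a subunit of IL-12, was at 5.65, 10.6, 3.06, 9.89 and 1.58 CPM in PBS and 6.76, 0.579, 0.525, 0.746 and 1.54 CPM in mono-IL10. It was 2.73-fold lower and did not pass (log2 -1.45 ± 0.77, adjusted p = 0.213). Without mono-IL10 mouse 1, the highest of its group, it stood at log2 -2.91 and passed (adjusted p = 0.0149). Nos2, the inducible nitric oxide synthase, did not pass either (9.43 ± 5.3 against 11.6 ± 5.11 CPM, adjusted p = 0.614).

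Among 34 genes of NF-kB and Toll-like receptor signaling, 3 fell (Tlr7, Ticam2 and Tnip3) and 0 rose, while without neutrophil or dendritic barcodes 2 were called higher and 3 lower. The share called among all macrophages was 8.82%, beside 8.47% of all genes tested. Tlr7, the endosomal sensor of single-stranded RNA, was at 24.3 to 33.9 CPM in PBS and 16.5 to 18.4 CPM in mono-IL10 (1.74-fold lower, adjusted p = 3.08e-05). At the adjusted p alone, 11 members were higher and 7 lower, beside 12.5% and 12.4% of all genes tested. The inhibitor Nfkbia was higher (log2 0.55) and the subunits Nfkb1 and Rel lower (log2 -0.41 and -0.36), each under the 1.5-fold limit.

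Antigen presentation genes were called at 0% for MHC class I and 14.3% for MHC class II, beside 8.47% of all genes tested. None of 22 MHC class I genes was called or passed the adjusted p alone (median log2 -0.07). Of 14 MHC class II genes, 2 fell, Ciita, the class II transactivator (1.59-fold lower), and H2-Eb2 (2.06-fold lower, at 5.48 ± 0.8 CPM in PBS). At a hashtag purity of 0.9 none of the 14 was called, and without Ly6c2 or Ccr2 barcodes Ciita did not pass (adjusted p = 0.0801) and the list median went from -0.25 to -0.03. H2-Ab1 stood at 1778, 2769, 1483, 2624 and 1768 CPM in PBS and 1773, 1703, 1352, 2042 and 1153 CPM in mono-IL10 (log2 -0.38 ± 0.21, adjusted p = 0.223), with wide overlap. Cd274, which encodes PD-L1, did not pass (log2 0.21, adjusted p = 0.131) but did without PBS mouse 4 (log2 0.28, adjusted p = 0.0268). Havcr2, which encodes TIM-3, fell 1.59-fold, and its largest adjusted p over the alternatives was 0.0733. Of 46 type I interferon-stimulated genes 3 fell, Ifi27l2a, Ifi213 and Oas1g, and 0 rose, a share of 6.52% beside the 5.8% of all genes called lower. The count was 0 at a hashtag purity of 0.9, 2 without neutrophil or dendritic barcodes, and 6 with library totals alone. Cxcl9, induced by interferon gamma, ranged from 141 to 517 CPM in PBS and from 65 to 358 CPM in mono-IL10 (adjusted p = 0.588).

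Most receptors for antibody rose. Of 8 Fc receptor genes tested, 6 rose and 0 fell (75% against 8.47% of all genes called in either direction), with a median log2 difference of 0.66. Fcgr2b, the inhibitory receptor for IgG, was at 934, 1045, 1051, 930 and 1086 CPM in PBS and 1638, 1666, 1684, 1631 and 1472 CPM in mono-IL10 (1.6-fold, adjusted p = 9.39e-06). The activating receptors Fcgr3 and Fcgr1 rose 1.56 and 1.55-fold and Fcgr4 rose 2.08-fold. Fcgrt, the neonatal Fc receptor that recycles IgG and albumin, rose 2.18-fold, and the gamma chain Fcer1g was higher under the fold limit (log2 0.43). Among the 6, mice overlapped for Fcrls only, at 94.3 to 257 CPM and 240 to 388 CPM (adjusted p = 0.0479). The member that did not move was Trim21, a cytosolic receptor for antibody, at 3.85 to 5.91 CPM over all mice (log2 -0.01, adjusted p = 0.975). With library totals alone 2 of the 8 genes were called higher, and 4 at a hashtag purity of 0.9 and without cell cycle barcodes, with list medians of 0.56, 0.60 and 0.62. Some Fc receptor genes have similar sequences, and reads shared between such copies are uncertain.

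The complement list held 3 genes that rose among 23 tested and 0 that fell, with 1 of 19 higher at a hashtag purity of 0.9. Among the 3 were C4b and C6 (2.68 and 2.48-fold), at means of 10.1 and 3.99 CPM in PBS. C1qa and C1qb were part of the gate, and their levels are given as a description, with means of 1993 and 2270 CPM in PBS and 2677 and 2968 CPM in mono-IL10. Among 32 paired and inhibitory receptors 5 rose and 3 fell, and the balance depended on the setting, with 4 higher and 5 lower by library totals alone, 4 and 4 at a hashtag purity of 0.9 and 3 and 4 without cell cycle barcodes. Pirb, an inhibitory receptor for MHC class I, rose 2.24-fold (77.0 ± 4.92 to 173 ± 8.71 CPM, adjusted p = 2.23e-08) and Ms4a6d 2.48-fold, while Cd300a fell 1.69-fold. Shares called were 13% in the complement list and 25% in the receptor list, beside 8.47% of all genes tested.

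Scavenger and uptake genes were split. Of 28 scavenger and resident macrophage genes 4 rose, Cd163, the folate receptor Folr2 (2.16-fold), the mannose receptor Mrc1 and the Axl ligand Gas6, and 3 fell, Cd36, Axl and Scarf1. With library totals alone 3 were called higher and 4 lower. At a hashtag purity of 0.9, 1 of 27 was called higher and 2 lower, and the list median went from 0.25 to -0.00385. Mrc1 was at 1149, 984, 1158, 910 and 1211 CPM in PBS and 2496, 2284, 1980, 1990 and 2246 CPM in mono-IL10 (2.03-fold, log2 1.02 ± 0.09, adjusted p = 5.93e-06). Mertk, the other main TAM receptor of macrophages, was higher under the fold limit (log2 0.43), opposite to Axl. Of 26 phagocytosis genes 1 rose and 5 fell, among them the engulfment adaptors Elmo1 and Gulp1. The scavenger and phagocytosis lists had 25% and 23.1% of their genes called, beside 8.47% of all genes tested.

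Most lysosomal genes were higher, a few were lower. At the adjusted p alone 27 of 46 were higher (12.5% of all genes) and 3 lower, with a median log2 difference of 0.24, and 4 rose past the fold limit. With both limits 13% of the list was called, beside 8.47% of all genes tested. Ctsl, the protease cathepsin L, was at 567, 653, 761, 600 and 666 CPM in PBS and 1719, 1750, 1856, 1754 and 1806 CPM in mono-IL10 (2.74-fold, log2 1.45 ± 0.08, adjusted p = 3.62e-08). Lgmn (legumain) and Ctsc (cathepsin C) rose 1.72 and 1.69-fold without overlap of mice. Lipa, the lysosomal acid lipase, fell 1.84-fold, and so did the protease Ctsk (1.54-fold).

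Of 28 lipid genes 3 rose and 5 fell, whereas without cell cycle barcodes 1 of 27 was called higher and 7 lower. Beside Fabp5, the secreted phosphoprotein Spp1 (2.04-fold) and the phospholipid transfer protein Pltp rose. With Cd36 and Lipa, the lipoprotein lipase Lpl (3.94-fold), Pparg, a nuclear receptor for fatty acids (1.85-fold), and Gpnmb (1.79-fold) fell. Of 19 iron genes, the iron exporter Slc40a1 (3.97-fold), ceruloplasmin Cp (3.47-fold) and the phagosomal transporter Slc11a1 (1.6-fold) fell and Cd163 and Steap3 rose. The lipid and iron lists had 28.6% and 26.3% of their genes called, beside 8.47% of all genes tested. Slc40a1 was at 34.1, 26.7, 32.5, 20.6 and 32.7 CPM in PBS and 4.55, 5.21, 13, 7.46 and 7.05 CPM in mono-IL10 (log2 -1.99 ± 0.27, adjusted p = 0.000537), with the groups well apart. In the tumor epithelial barcodes described below Cp stood at 1276 CPM in PBS and 1299 CPM in mono-IL10, beside 35.1 and 10.4 CPM in macrophages, and the part of tumor RNA in its macrophage level was not tested.

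The alternative activation list had 47.8% of its genes called, 5 higher and 6 lower of 23, beside 8.47% of all genes tested. Without cell cycle barcodes or without Cd163 barcodes 5 were called higher and 4 lower. Arg1 (arginase 1) was at 782, 833, 1482, 1010 and 1144 CPM in PBS and 2185, 2027, 2172, 1917 and 2344 CPM in mono-IL10 (2.03-fold, log2 1.02 ± 0.15, adjusted p = 0.00075). It rose with Mrc1, Il4ra, Fn1 (fibronectin) and Ccl24. The genes that fell were Ccl17, Ccl22, Mgl2, Clec10a, Retnla and Ear2. Retnla overlapped between groups, at 9.02 to 61.3 CPM in PBS and 0.946 to 10.5 CPM in mono-IL10. Irf4, a transcription factor of IL-4 responses, fell 2.09-fold.

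Chemokines and matrix genes followed. Of 10 monocyte-attracting chemokines Ccl8 and Ccl24 rose and Cx3cl1 fell, while of 8 lymphocyte-attracting chemokines Ccl17 and Ccl22 fell. Ccl24 overlapped between groups, with 132 CPM in PBS mouse 5 and 116 CPM in mono-IL10 mouse 4, and did not pass without Ly6c2 or Ccr2 barcodes (log2 1.14, adjusted p = 0.105). Ccl22 overlapped as well (adjusted p = 0.0486), and its adjusted p was 0.117 without Ly6c2 or Ccr2 barcodes, 0.232 without cell cycle barcodes and 0.0643 without Cd163 barcodes. Among the receptors, Ltb4r1 for leukotriene B4 (2.27-fold) and Ackr3 rose, and Cx3cr1 and Cxcr2 fell. Cxcr2 is also in the neutrophil list. Over the 18 receptors tested 3 rose and 2 fell, but with library totals alone 1 was called higher and 4 lower. Of 38 matrix and growth factor genes 8 rose and 1 fell (7 and 3 with library totals alone). Fn1 was at 1004, 730, 1257, 692 and 1104 CPM in PBS and 2354, 2327, 2639, 2288 and 2627 CPM in mono-IL10 (2.56-fold, adjusted p = 0.00011). The matrix protein Tgfbi rose 2.22-fold (899 ± 92.5 to 1996 ± 209 CPM), the ErbB ligand Nrg1 2.41-fold, the protease inhibitor Timp1 2.38-fold, the collagenase Mmp13 1.9-fold and Mmp19 1.63-fold. Mmp2 fell 1.84-fold.

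Surface lectins and monocyte identity genes were called at shares of 29.2% and 17.4%, beside 8.47% of all genes tested. Of 24 C-type lectins and Siglecs 5 fell and 2 rose, Clec2d (1.93-fold, from 77.2 ± 9.49 to 149 ± 19.8 CPM) and Mrc1. With Clec12a and Mgl2, Clec10a fell 1.62-fold, and Clec4b1 and Clec9a, under 10 CPM on average in PBS, fell as well. Of 23 monocyte identity genes 3 fell, among them S100a4 (1.78-fold) and the integrin Itgal (1.55-fold), and 1 rose, Fn1. Without barcodes holding a neutrophil or dendritic marker UMI 3 monocyte genes were called higher and 3 lower. Ly6c2 and Ccr2 did not pass (log2 -0.53 and -0.26, adjusted p = 0.299 and 0.0625). Hpgd, which inactivates prostaglandins, fell 5.7-fold from 9.26 ± 4.29 to 1.68 ± 0.604 CPM. Gdf15, a stress-induced cytokine, fell 1.78-fold with overlapping mice. It was the 1 gene called of 23 in the stress response list, where 0 of 22 were called without cell cycle barcodes.

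Hypoxia, glycolysis, oxidative burst and cholesterol synthesis lists had 9.09%, 4.55%, 13.6% and 4.17% of their genes called, beside 8.47% of all genes. Of 22 hypoxia genes 11 were higher and 0 lower at the adjusted p alone, beside 12.5% and 12.4% of all genes tested. Ddit4 and Ndrg1 (1.93-fold) passed the fold limit. By RLE scaling, by DESeq2, at a hashtag purity of 0.9 or without neutrophil or dendritic barcodes 4 hypoxia genes were called higher. Of 22 glycolysis genes 11 were higher and 2 lower at the adjusted p, with 0 past the fold limit upward and Slc2a3 past it downward. Slc2a3 did not pass without neutrophil or dendritic barcodes (log2 -0.42, adjusted p = 0.309) or without Ly6c2 or Ccr2 barcodes (adjusted p = 0.0998). In the oxidative burst and antioxidant list 10 of 22 were lower and 1 higher at the adjusted p. Both subunits of glutamate-cysteine ligase, the first enzyme of glutathione synthesis, fell (Gclc 1.74-fold and Gclm 1.59-fold), as did peroxiredoxin Prdx1 (1.6-fold). In place of these 3, 2 genes of the list were called lower at a hashtag purity of 0.9. With library totals alone or without cell cycle barcodes 4 were. Of 24 cholesterol synthesis genes 1 was called, Pmvk, which rose 1.91-fold. At the adjusted p alone 2 were higher and 6 lower, with a median log2 difference of -0.12.

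Cell cycle genes fell together. Of 30 S phase genes 20 fell and 0 rose (13 of 27 lower at a hashtag purity of 0.9), and of 33 G2 and M phase genes 30 fell and 1 rose, with median log2 differences of -0.81 and -1.13. Shares called were 66.7% and 93.9%, beside 8.47% of all genes tested. Mki67, a marker of cycling cells, was at 85.6, 69.5, 70.6, 54.2 and 69.2 CPM in PBS and 40.4, 30.7, 36, 34.8 and 28.6 CPM in mono-IL10 (2.03-fold lower, adjusted p = 9.87e-05). Kif23, a kinesin of cytokinesis, fell 2.87-fold and Uhrf1, which maintains DNA methylation, 2.6-fold. The exception was Kif2c, another mitotic kinesin, at 5.39 to 7.57 CPM in PBS and 11.7 to 15.5 CPM in mono-IL10 (2.33-fold higher, adjusted p = 1.04e-05). In barcodes without a UMI of Mki67, Top2a, Cdk1, Ccnb1, Ccna2, Mcm5, Mcm6 or Rrm2, an alternative added after the data were seen, 0 of 20 S phase genes and 6 of 19 G2 and M phase genes were called lower, and 265 genes in all were called higher and 468 lower. That filter is itself made of cell cycle genes, so the counts it leaves in these lists are not a test of their difference.

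**Figure D3:**
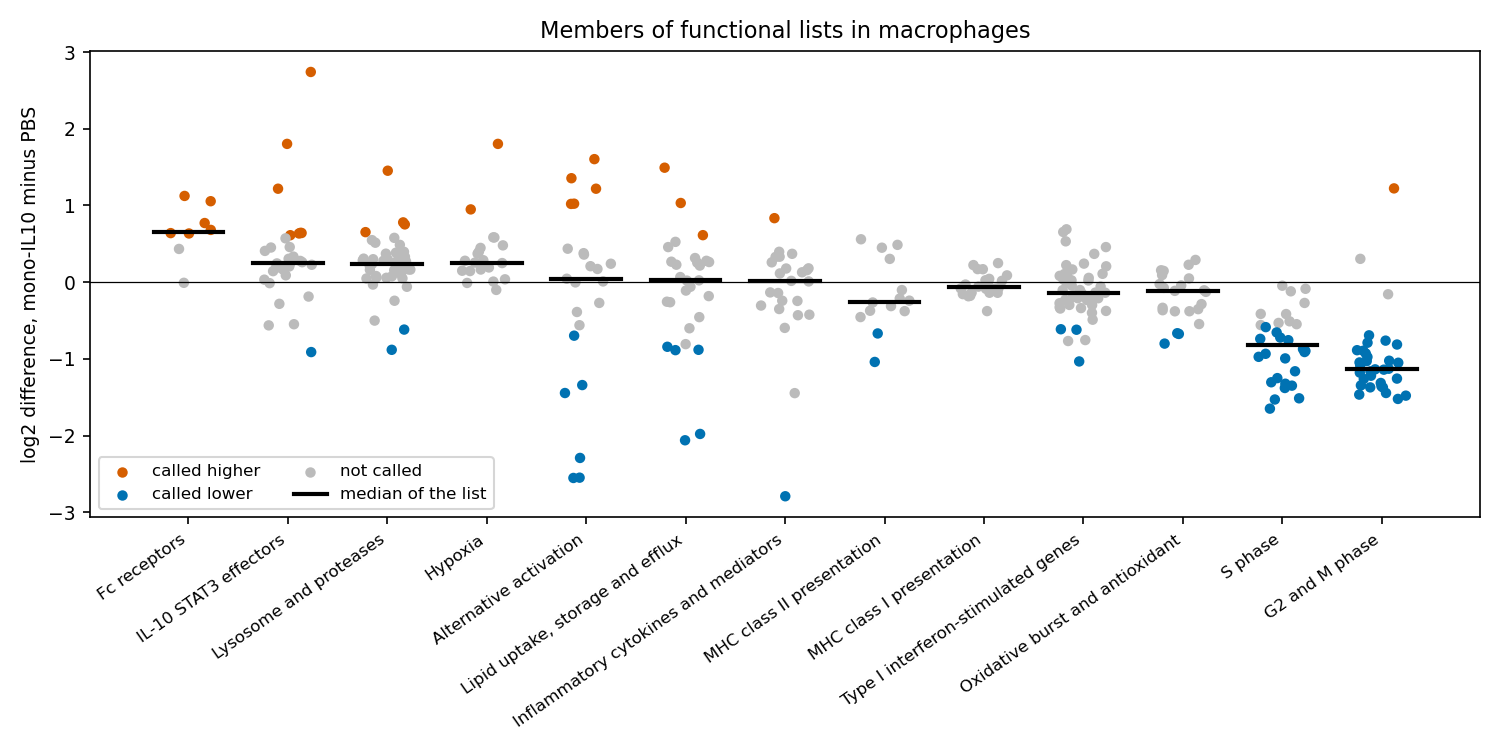
Log2 difference (mono-IL10 minus PBS) of each tested member of 13 functional lists, 1 point per gene, colored orange where called higher, blue where called lower and gray otherwise, with a black bar at the list median. Fc receptor, lysosome and hypoxia members lie mostly above 0, MHC class I members lie close to 0, alternative activation members lie on both sides, and the medians of the S phase and G2 and M phase lists are -0.81 and -1.13.

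The transcription factors tested, 34 in all, gave 2 that rose and 5 that fell (20.6% called, beside 8.47% of all genes tested). Nfil3 and Bcl6, both repressors, rose 1.56-fold each, and with library totals alone 0 of the 34 were called higher. Runx1 was at 486, 417, 444, 477 and 465 CPM in PBS and 267, 280, 276, 267 and 279 CPM in mono-IL10 (1.67-fold lower, log2 -0.74 ± 0.05, adjusted p = 1.18e-06), with little spread in either group. Irf4, Pparg, Egr3 and Bhlhe41 also fell. Lyz2 (lysozyme M), which is abundant in macrophages, monocytes and neutrophils, fell from 5502 to 3170 CPM on average, without overlap of mice.

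The share of macrophage barcodes with a UMI was counted after each barcode had been thinned to 3000 UMIs. At that depth a share can change through more cells that carry a gene or through more RNA in each. The count therefore cannot separate the 2. Thinning left out 997 shallower macrophages in PBS and 521 in mono-IL10. Barcodes with Cd163 made up 3.52, 1.24, 3.07, 0.797 and 4.42% of macrophages in the PBS mice and 10.8, 13.1, 8.11, 5.09 and 14.8% in the mono-IL10 mice. All mono-IL10 mice exceeded all PBS mice. Shares with Folr2 rose from 16.4% ± 5.40 to 29.7% ± 2.40 (SD, n = 5) and shares with Arg1 from 67.4% ± 6.13 to 86.7% ± 1.86. Barcodes with Cx3cr1 and without Cd163 fell from 34.6% ± 5.59 to 13.1% ± 2.80, and barcodes with Mki67 from between 9.37 and 13.6% in PBS mice to between 5.14 and 6.97% in mono-IL10 mice. In these 5 cases the groups did not overlap, and the exact two-sided permutation test over 252 splits gave its smallest possible p of 0.00794 (0.00952 adjusted over 6 subsets). Summed levels of Cd163, Arg1, Cx3cr1 and Mki67 in these macrophages had not overlapped either, so for them the p is not separate evidence. The Folr2 share is counted in the same macrophages that gave its call above, so its p is not separate evidence either.

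Barcodes with both Ly6c2 and Ccr2, genes of monocytes, were at 1.15 to 1.86% in PBS and 0.178 to 1.28% in mono-IL10 and overlapped (exact permutation p = 0.0794, adjusted p = 0.0794). Unthinned means were 4.11% and 13.6% for Cd163, 25.2% and 45.1% for Folr2, 76.6% and 92.4% for Arg1, 48.4% and 22.6% for Cx3cr1 without Cd163, 17.3% and 11.4% for Mki67 and 3.63% and 2.2% for Ly6c2 with Ccr2. As background, tumor epithelial barcodes thinned in the same way, which had median depths of 27470 and 35817 UMIs before thinning, held Folr2 in 0.105% and 0.038%, Arg1 in 1.86% and 1.07% and Cx3cr1 without Cd163 in 2.37% and 1.37%. Cd163 was in none of 2353 thinned PBS tumor barcodes, which allows a share of up to 0.128%. Mki67 was in 16.3% of them in both groups, since tumor cells divide, and gives no background. Macrophages as a share of all barcodes of a mouse that passed the filters did not differ detectably, at 45.9% ± 6.64 in PBS and 41.9% ± 13.5 in mono-IL10 (exact permutation p = 0.524).

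**Figure D4:**
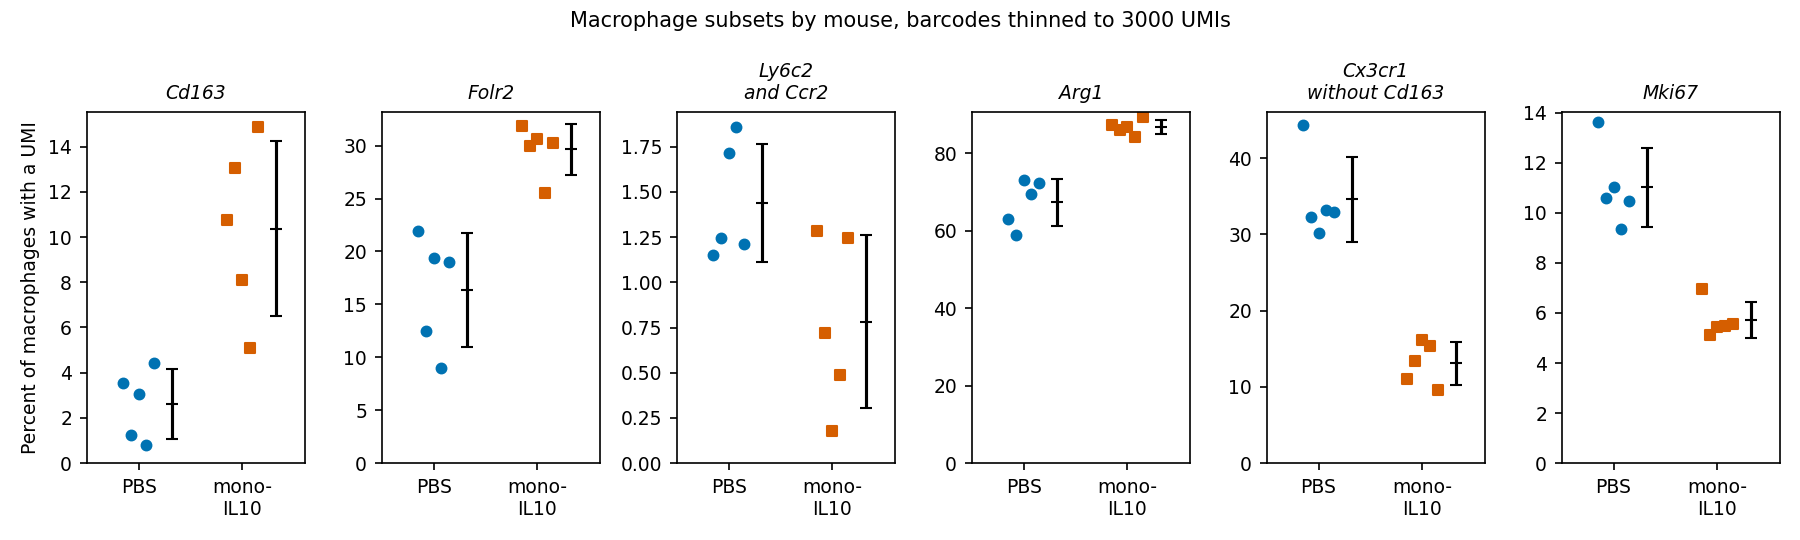
Percent of macrophage barcodes of each mouse that held a UMI of the named gene or genes after thinning to 3000 UMIs, with circles for PBS mice, squares for mono-IL10 mice and bars for the mean and SD (n = 5). The groups separate for Cd163, Folr2, Arg1, Cx3cr1 without Cd163 and Mki67 and overlap for Ly6c2 with Ccr2, and each panel has its own axis from 0.

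The response was compared between macrophages with a UMI of Ly6c2 or Ccr2 and those with neither. Of 12389 genes tested for a difference in response, 136 passed the adjusted p (1.1%), and 10 of the 89 named genes that were called did so. The 89 were chosen for calls in the same macrophages, so the 10 cannot be read against that share. Fabp5 rose more in the positive stratum (log2 1.82 against 1.30, difference 0.52 ± 0.05, adjusted p = 3.08e-06). Fn1 rose less there (1.03 against 1.55, adjusted p = 2.87e-06), and so did Socs3 (0.39 against 0.71, adjusted p = 0.00521), Ndrg1, Ltb4r1 and Pirb. Axl and Tnip3 fell more in the positive stratum (Axl -1.47 against -1.09, adjusted p = 0.0203), Itgal fell less, and Lgmn rose more. With strata set by Ly6c2 alone, 14 genes passed in place of 136. Barcodes of the positive stratum were deeper, with median UMIs of 6742 to 8019 per PBS mouse against 4724 to 5954 in the negative stratum, and of 6431 to 9330 against 4845 to 7278 in mono-IL10, and the part of depth was not tested.

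Tumor epithelial barcodes of the same 2 libraries, those with at least 10 UMIs of Krt8 and Krt18 and none of the macrophage, T or NK genes of the gate were compared in the same way. There were 2394 in PBS and 3303 in mono-IL10. Between them 21 of 13457 genes were called (0.156%), 4 higher and 17 lower, with 2013 at an unadjusted p under 0.05. The response differed between macrophages and tumor barcodes for 1744 of 14658 genes (11.9%) and for 56 of the 89 named genes that were called. Those 89 were chosen for calls in the same macrophage counts, so their count cannot be read against the share of all genes. Gja1 stood at log2 2.77 in macrophages and 0.16 in tumor barcodes (adjusted p = 0.000125 for the difference), Ecm1 at 1.85 and 0.22 (adjusted p = 4.18e-07) and Adgre5 at -1.35 and 0.01 (adjusted p = 1.02e-07). Top2a was lower in macrophages and at 0.01 in tumor barcodes (adjusted p = 0.000377). Bcl6 was the single named gene called in both, 0.64 in macrophages and 0.66 in tumor barcodes. Under the fold limit, Mt2 and Ctsl also passed edgeR's adjusted p in tumor barcodes. Mt2 stood at 0.45 there (adjusted p = 0.00184) and 1.74 in macrophages, and Ctsl at 0.25 (adjusted p = 0.0457) and 1.45.

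**Figure D5:**
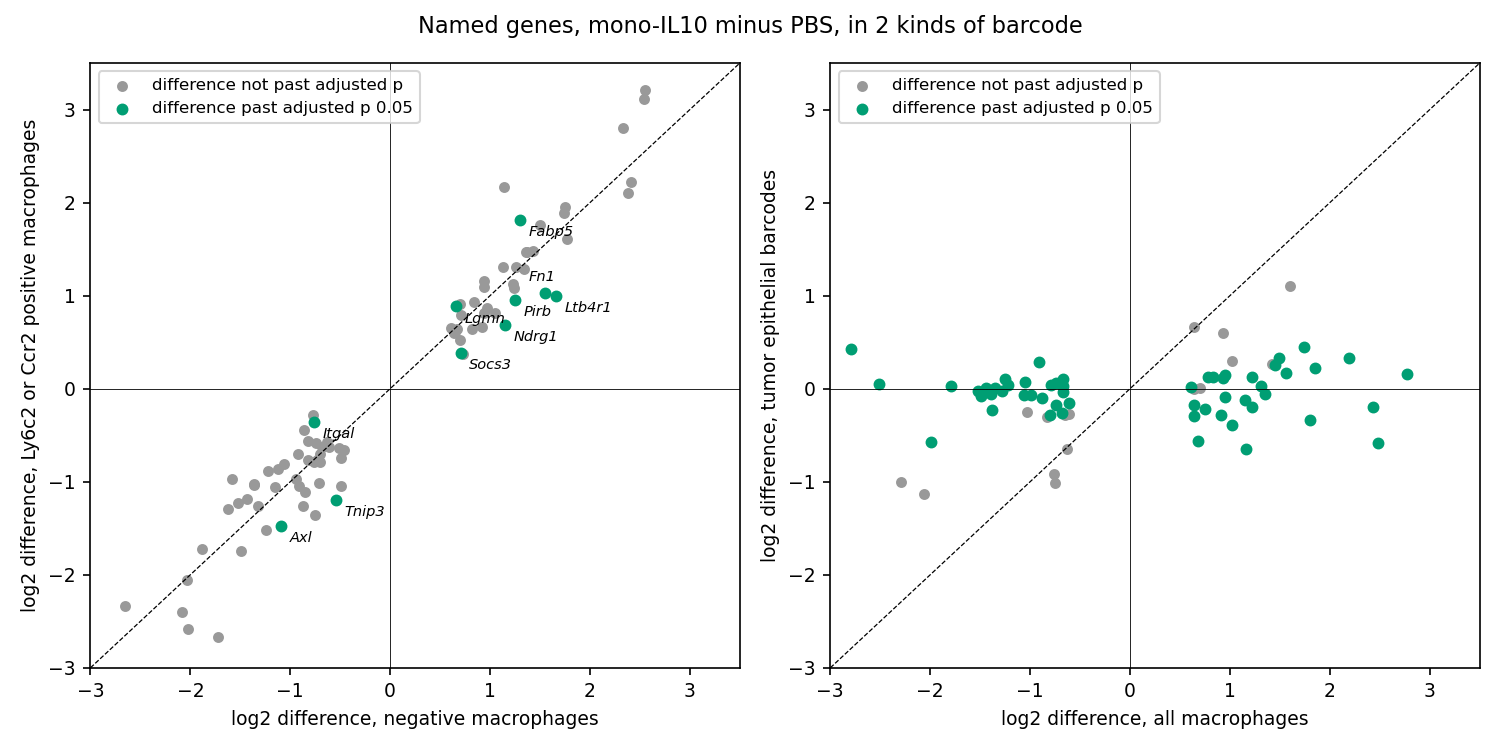
Log2 difference (mono-IL10 minus PBS) of named genes that were called, with macrophages positive for Ly6c2 or Ccr2 against negative ones (left) and tumor epithelial barcodes against all macrophages (right), the dashed line marking equal values and green points a difference past adjusted p 0.05. On the left 10 genes differ past that limit, and most points on the right lie close to 0 on the vertical axis.

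IL10/2-Trikine, built on mono-IL10 to recruit IL-2Rβ as well, was given at 30.6 μg per mouse against 26 μg, masses of different proteins. It was measured in a library of lower depth, with a median of 3200 UMIs per macrophage. It also shares the PBS mice, so its values are only set beside those of mono-IL10. Against PBS it gave 567 genes higher and 432 lower of 12887 tested (7.75%). Cd163 stood at log2 2.74 with mono-IL10 and 2.71 with IL10/2-Trikine, Gja1 at 2.77 and 2.22, Fabp5 at 1.49 and 0.97 and Ccl17 at -2.29 and -2.56. Pgf stood at 2.19 and 0.82, Ddit4 at 1.80 and 0.58, Socs3 at 0.61 and -0.08 and Il1rn at 0.57 and -0.07. Ceruloplasmin stood at -1.80 with mono-IL10 and 0.83 with IL10/2-Trikine. No test of the difference between the cytokines was made.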

How the data were processed

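CD45+ cells of each tumor were labelled with a hashtag antibody per mouse, pooled by treatment and sequenced as 1 10x GEM-X 5' library per treatment. The authors deposited raw UMI counts per feature and barcode, made with Cell Ranger 9.0.1 on GRCm39 per the file headers and labels, with genes and hashtags in 1 matrix. The submitters' processing notes also name Seurat 5.1.0 and DESeq2 1.46.0, whose table of annotated cells was not used here. Members and gene lists were chosen with earlier results of these data known.

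Counts were summed per mouse over the macrophage barcodes and tested with edgeR 4.0.16 (R 4.3.3; TMM, its expression filter, robust quasi-likelihood test, Benjamini-Hochberg adjustment). A call required an adjusted p under 0.05 and a fold of at least 1.5. No doublet caller was run; the keratin, Cd3e, Ncr1 and Klrb1c limits removed mixed barcodes, and barcodes with no hashtag at 2/3 of antibody UMIs were left out. In each direction the text names the 12 genes with the largest difference among those past the adjusted p, without overlap of mice and with at least 50 CPM in the higher group, leaving out predicted genes and markers of other cells, then up to 3 called genes with the smallest p per list and a set of IL-10 related genes. Other list members were named after their values were seen. Genes with near-identical copies (Ms4a, Sirpb1, Ear, Oas1 and Fcgr families) are uncertain. Shares used barcodes thinned to 3000 UMIs and an exact permutation test over mice. Differences in response were tested on mouse-level counts of both populations with the mouse kept as a block. Alternatives were RLE and library-total scaling, DESeq2 1.42.0, no expression filter, all 15 mice in 1 fit, other gates and each mouse left out. The procedure was tested on simulated data. Mouse numbers come from the hashtag names. The ± values are SDs over mice or SEs of the fit on mouse-level counts, and both hold the spread between mice. Zero limits cover counting error only, and p-values measure the spread between mice within 1 library per treatment. Some list members are not reported here.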

Additional observations from a re-analysis of the deposited data

Results flagged for a closer look

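Of 104 groups of 5 mice screened, 10 held 1 mouse far from the other 4, and chance alone flags about 1 in 20 groups. Ifitm1 was at 276 CPM in PBS mouse 2 against 136 to 148 CPM in the other PBS mice, and Mt2 was at 118 CPM in the same mouse against 156 to 168 CPM. PBS mouse 1 had 260 CPM of Cx3cr1 against 158 to 178 CPM, and 44.4% of its macrophages held Cx3cr1 without Cd163 against 30.2 to 33.2%. Cxcl9 was at 517 CPM in PBS mouse 4 against 141 to 249 CPM.

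Among mono-IL10 mice, mouse 3 was low for Bcl3 (26.7 CPM against 34.2 to 36.2) and Sbno2 (90.0 CPM against 108 to 115). Il1b was at 5021 CPM in mouse 5 against 6323 to 6801 CPM. In mouse 1, Il12b was at 6.76 CPM against 0.525 to 1.54 CPM, and Mki67 was held by 6.97% of macrophages against 5.14 to 5.56%.

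The response differed between Ly6c2 or Ccr2 positive and negative macrophages, by a test of the difference, for Fabp5 (log2 difference 0.52), Axl (-0.40) and Socs3 (-0.31).

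Between macrophages and tumor epithelial barcodes the response differed, by the same kind of test, for 27 of the genes screened. The genes screened include those named for the largest changes in macrophages, so this count cannot be read against all genes. The log2 difference was 2.62 for Gja1, 3.01 for Ifitm1, 2.69 for Pgap6, 1.86 for Pgf, 1.61 for Ecm1, 2.12 for Ddit4, 1.27 for Mt2, 1.45 for Ccl8 and 1.13 for Fabp5. For genes that were lower in macrophages it was -1.49 for Cx3cr1, -1.47 for Top2a, -1.38 for Adgre5, -1.30 for Pclaf, -1.34 for Stmn1, -1.28 for Axl, -1.02 for Igfbp4 and -1.13 for Smc2. Genes of IL-10 signaling and inflammation gave 0.58 for Socs3, 1.43 for Il4ra, 0.83 for Nfil3, 1.06 for Il10ra, 0.45 for Stat3, 0.30 for Sbno2, 0.64 for Zfp36, 0.56 for Il1rn, 0.78 for Il1b and 1.46 for Arg1. Il10ra was low in tumor barcodes, at 1.57 CPM in PBS and 0.844 CPM in mono-IL10, and changed by log2 0.14 in macrophages (adjusted p = 0.0616).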

How the results depend on the processing

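Scaling by library totals alone called 230 genes higher, and a hashtag purity of 0.9 called 229 higher and 334 lower. At that purity 139, 1650, 39, 256 and 552 macrophages were left in the PBS mice. In the mono-IL10 mice 752, 945, 227, 209 and 973 were left. How far weak assignment of barcodes to mice enters the spread between mice was not tested. Without barcodes holding a cell cycle UMI, an alternative added after the data were seen, 468 were lower. With each mouse left out in turn, 327 to 371 genes were higher and 663 to 862 lower. The hashtag numbers share only a number across treatments (correlations of same-numbered mice 0.0432 to 0.344, 2 of 5 best with their own), and a replicate block by number gave 343 higher and 792 lower. The change in barcodes with Ly6c2 and Ccr2 was -0.206 percentage points and past the test with 2 UMIs or more (adjusted p = 0.0238, exact permutation test), and -0.779 to -0.503 with 1 mouse left out, past the test without mono-IL10 mouse 1 or mouse 5. With 1 mouse left out the change in share was 6.65 to 9.09 for Cd163, 11.5 to 14.7 for Folr2, 17.2 to 20.8 for Arg1, -22.6 to -19.1 for Cx3cr1 without Cd163, -5.71 to -4.65 for Mki67 and -9.40 to -0.0931 for macrophages. Strata by Ly6c2 alone gave 14 genes that differed in place of 136. The cause of these shifts was not tested. Of 35 genes named by size or always named that passed the adjusted p, 27 passed under all of the 25 alternatives that gave a value and 0 reversed. Cd163, Cd36, Stat3 and Zfp36 did not pass at purity 0.9, Zfp36 also with library totals, Pclaf and Smc2 without cell cycle barcodes, and Il10rb and Il1b in 16 and 14 alternatives. Of all 89 named genes that were called, 64 passed the adjusted p in every alternative with a value and 25 did not in at least 1, with 19 of 86 not past it at purity 0.9, 8 of 87 without cell cycle barcodes, 7 of 88 without Ly6c2 or Ccr2 barcodes and 5 of 84 without neutrophil or dendritic barcodes, and 0 reversed. H2-Ab1, not past the test otherwise, passed with the replicate block (log2 -0.36, adjusted p = 0.0267), and Il12b passed without mono-IL10 mouse 1 (log2 -2.91, adjusted p = 0.0149).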
